A study of Mus musculus with 2 samples.

Results

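Prefix models are transcript models that begin with the first splice junctions of a longer transcript and stop before its last ones. They were the rows of both deposited tables that carry the incomplete-match class with the subtype Prefix and lie outside the spike-in RNAs. Replicate 1 held 1569 of them among 72416 mouse models, and replicate 2 held 1441 among 88614. They took 16167 of 1066170 mouse reads in replicate 1 (1.52%, Wilson 95% interval 1.49 to 1.54) and 4456 of 1477435 in replicate 2 (0.302%, 0.293 to 0.311). The working name "incomplete 5′ end" did not match these models. The 5′ start lay within 50 bases of an annotated start of the gene in 1466 prefix models of replicate 1 (93.4%) and 1317 of replicate 2 (91.4%). The mirror class, suffix models that keep the end of a longer transcript, did so in 2995 of 14261 models in replicate 1 and 2934 of 13753 in replicate 2. It was the 3′ end that stopped early, and the models are called prefix models below.

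The tissue was gastrocnemius, a calf muscle rich in fast fibres, taken at 36 days of age from male mice of strain B6CASTF1/J, the F1 hybrid that joins the C57BL/6J and CAST/EiJ genomes. Transcripts were read by long-read RNA sequencing from 2 µg of total RNA for each of 2 biological replicates. The labels number the males separately but give both the same donor entry, so the difference between the libraries may be partly technical. There was 1 group and no condition to compare. Fast muscle markers stood at 14068 to 77825 CPM (counts scaled to 1000000 reads in annotated genes) in replicate 1 and at 16533 to 65797 CPM in replicate 2, while Ptprc of immune cells and Pax7 of satellite cells had 0 reads in both libraries, where 3 reads equal 2.89 and 2.18 CPM. Fibroblast Col1a1 stood at 1306 CPM in replicate 1 and 254 CPM in replicate 2, and its part in the values below was not tested.

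The 3′ end of most messenger RNAs is made by cleavage and addition of a poly(A) tail, usually a short way after a signal whose common form is AATAAA. Many genes have more than 1 such site, and a site inside an intron gives a short transcript with a last exon of its own. U1 snRNP, the particle that marks 5′ splice sites, also keeps early intronic sites from being used. Copying of RNA with an oligo(dT) primer adds a further source of early ends, because the primer can sit on a run of A inside a transcript. Both sources give a model that begins like the full transcript and stops early, so early ends found in both libraries are described here as candidates for either, with the bases after the end wherever an annotated exon covers them.

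The sequences that carry this distinction are shown for ends that lay within 50 bases of each other in both libraries. Each line below gives 30 bases of the transcript strand, the last 10 bases of the model and then the 20 genomic bases after its end, with the A residues of those 20 in capitals. They were read from GENCODE M21 transcripts on GRCm38, the assembly called mm10 in the files. Son is shown for its reads, and Eif5, Hsp90aa1, Mphosph8 and Rbm25 as examples with fewer reads inside the coding span, chosen after their values were seen. These 4 also end on an annotated 3′ end of another transcript, and Son does not.
Son, chr16:91654690-91654719, plus strand: aaagaagcatAAAAAgcAcAAAAAcAAAAA
Eif5, chr12:111541718-111541747, plus strand: ttggtacaggAAAgAAAgAAAAggAAAAgA
Hsp90aa1, chr12:110694155-110694184, minus strand: aagaagaaaaAgAAgAAgAtAAAggAAAAg
Mphosph8, chr14:56673968-56673997, plus strand: accaaggaagAAAAAgAAAAAAAtAAAgtg
Rbm25, chr12:83663990-83664019, plus strand: agagaaaggcAAAAAAgAAAAAgAAAgAcA

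The next lines give the last 30 bases of 4 models found in both libraries whose end follows AATAAA, in capitals. Pdlim7, Nexn and Phf10 end on an annotated 3′ end, and Ckm ends in an intron of the transcripts it begins like. No annotated Ckm exon covers that end, so its bases were read from an annotated exon of another gene.
Pdlim7, chr13:55506773-55506802, minus strand: agcatggaAATAAAcattctcggccctgct
Nexn, chr3:152236982-152237011, minus strand: aatcaaAATAAAtttacctgtgcattaaaa
Phf10, chr17:14947738-14947767, minus strand: tcaaaAATAAAtaagccaaaattgtttttg
Ckm, chr7:19418467-19418496, plus strand: ggcaaataaaataaAATAAAacattgatac

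Most prefix models rested on 1 read. Single-read models made up 78.5% of prefix models in replicate 1 and 78.3% in replicate 2, against 60.5% and 58.0% of all mouse models. Only 33 models of replicate 1 and 35 of replicate 2 had 10 or more reads. The models had from 2 to 64 exons in replicate 1 and from 2 to 34 in replicate 2. Their median length was 1847 bases in replicate 1 and 1278 bases in replicate 2, beside 1887 and 1049 bases over all models, so the shorter prefix models of replicate 2 went with shorter models of that library as a whole. Host genes numbered 1167 in replicate 1 and 1108 in replicate 2, and 428 genes were hosts in both (36.7% of the first set and 38.6% of the second). Because single reads make up so much of the class, the results below turn on the models found in both libraries.

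The read share of the class in replicate 1 came from 1 model. Aldoa encodes aldolase A, the glycolytic enzyme that splits fructose bisphosphate. Its 9-exon model (chr7:126795234-126800046, minus strand, mm10) held 12320 of 14784 Aldoa reads in replicate 1, which was 76.2% of all prefix reads there. The same chain of junctions held 14236 of 18371 Aldoa reads in replicate 2, where the table classed it as a new combination of annotated splice sites. Its 3′ end was the annotated Aldoa end at 126795234 in both libraries. The longer model it began like was a single unannotated 10-exon chain with 2 reads, whose end lay 2124 bases further on, and replicate 2 held 0 longer chains. At 11887 CPM in replicate 1 and 10360 CPM in replicate 2 the Aldoa model was not called between the libraries (1.15-fold, adjusted p = 4.09e-27 by the exact binomial test described below, under the 2-fold limit). With TMM scaling the log2 ratio turned to -0.22, against 0.20, with an adjusted p of 6.89e-34 by the same exact test. Without it the share of mouse reads in prefix models was 0.361% in replicate 1 and 0.302% in replicate 2.

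Aldoa was the extreme of a wider division. An annotated transcript that begins with the same junctions and goes on past the model existed for 1204 prefix models of replicate 1 (76.7%, 74.6 to 78.8) and for 1128 of replicate 2 (78.3%, 76.1 to 80.3). These models held 2009 reads in replicate 1 and 2357 in replicate 2, 0.188% and 0.160% of mouse reads. A further 313 and 234 models began like only an unannotated chain of the same library, and they held 14093 and 1888 reads. In 29 models of each library the unannotated longer chains had fewer reads than the prefix model itself, and those 29 held 13144 of the 14093 reads in replicate 1 and 1246 of the 1888 in replicate 2.

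Pdlim7, which encodes a PDZ and LIM domain protein of the actin cytoskeleton, had the same form in both libraries. Its 7-exon model (chr13:55506773-55513434, minus strand) held 551 of 668 Pdlim7 reads in replicate 1 and 845 of 1057 in replicate 2, 82.5% and 79.9% of the gene. The end was base 55506773 in both libraries, an annotated 3′ end, with AATAAA 16 bases before it. The model itself holds a junction from 55507649 to 55508780 that the annotation lacks. The longer chains that gave it the prefix class had 3 reads in each library and ended 8361 bases further on. Its level was 531.6 CPM in replicate 1 and 615.0 CPM in replicate 2. In Aldoa and Pdlim7 the prefix model held most reads of its gene and the longer chain a few.

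Class also differed between the tables for chains with many reads. Trdn encodes triadin, a protein of the junctional sarcoplasmic reticulum that binds the calcium release channel and calsequestrin. Its 10-exon chain (chr10:33083483-33233926, plus strand) had 327 reads in replicate 1, where it was classed as matching both a start and an end of longer transcripts, and 382 reads in replicate 2, where it was classed prefix. Ehbp1l1, a calponin homology domain protein, had 74 reads in a 20-exon chain of replicate 1 classed prefix and 18 reads of the same chain in replicate 2 classed as a new combination. The 2-exon chain at Gm6829 had 68 reads in replicate 1, outside annotated genes by its table, and 169 in replicate 2, where it was classed prefix beside a longer chain with 1 read. Over all members, 348 chains were prefix in both tables, 1178 of replicate 1 and 1049 of replicate 2 were absent from the other table, and the rest had another class there. New combinations took 23 of those in replicate 1, with 12551 reads that were nearly all the Aldoa model, and 18 in replicate 2, with 150 reads.

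The 3′ ends of prefix models fell in different places from those of suffix models. An end within 50 bases of an annotated 3′ end of the gene was found in 40.6% of prefix models in replicate 1 (38.2 to 43.1) and 39.4% in replicate 2 (36.9 to 42.0), against 88.0% and 87.9% of suffix models. Ends on the 3′ border of an annotated exon, where the next intron begins, made up 27.8% and 31.2% of prefix models, against 0.295% and 0.407% of suffix models. Ends in an intron made up 20.4% and 18.4% of prefix models, against 0.210% and 0.262% of suffix models. The share inside an annotated exon was alike in both classes, 9.82% and 9.58% of prefix models against 9.97% and 10.2% of suffix models. A suffix model keeps the last junctions of its transcript by rule, so the difference between the classes was built into the rule and is given without a test. New combinations of annotated splice sites, whose rule sets no end, had 89.4% and 88.8% on an annotated 3′ end, 0.473% and 0.595% on an exon border and 0.935% and 0.854% in an intron.

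**Figure D1:**
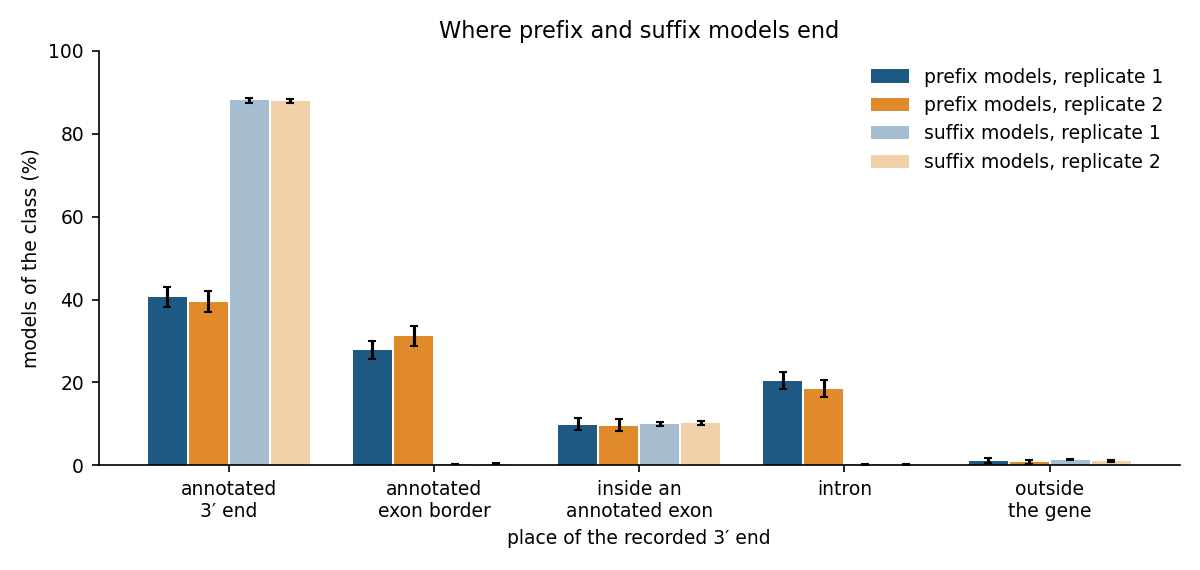
Share of prefix and suffix models (%) by the place of the recorded 3′ end, with Wilson 95% intervals, for replicate 1 and replicate 2. Exon borders held 27.8% and 31.2% of prefix models and introns 20.4% and 18.4%, while both places were near 0 in suffix models.

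The ends on annotated 3′ ends were of 2 kinds in models with an annotated longer transcript. In 207 models of replicate 1 and 141 of replicate 2 the end was that of the longer transcript itself, and the model stopped short in junctions only because it kept the last intron or introns. In 257 and 292 models the end belonged to another annotated transcript of the gene. The remaining ends were on an exon border (350 and 366), inside an exon (120 and 113), in an intron (264 and 216) or outside the gene (6 and 0). The models kept a median of 52.8% of the exonic length of the longest matching transcript in replicate 1 and 44.1% in replicate 2. By place, the median kept was 31.0% and 24.3% at exon borders and 59.2% and 58.0% in introns. It was 119% and 114% at the end of the longer transcript, where the kept intron adds length.

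Ends in introns reached a median of 973.5 bases past the last shared splice donor in replicate 1 (quartiles 548 and 1706) and 742 bases in replicate 2 (441 and 1364). The last exon of these models was long, with a median of 1208 and 922 bases. They stopped in the second intron in 21.6% and 20.8% of cases and in the last intron of the longest transcript in 16.3% and 15.3%. The end lay inside the coding span of the longer transcript in 235 of 242 coding cases in replicate 1 and 185 of 196 in replicate 2. At exon borders it did so in 316 of 328 and 318 of 332 cases, and at the end of the longer transcript in 11 of 192 and 7 of 130. Ends at the end of the longer transcript mostly lay past its stop codon, and ends in introns and on borders before it. The place of an end largely fixes this order, so it is given without a test.

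The recorded ends had a step beside exon borders. Intronic ends were counted here where the nearest annotated exon border lay before them, and those nearer a following border were left out. In replicate 1, 6 models ended 151 to 300 bases past an annotated exon border and 45 ended 301 to 450 bases past one. In replicate 2 the counts were 7 and 52. Exactly on a border ended 436 and 450 models. The near-empty stretch up to 300 bases, next to the pile on the border itself, was seen in both libraries. The deposited files record 1 end for each model, and ends of single reads were not analysed here. Whether reads that stop a short way into an intron were recorded on its border was not tested.

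**Figure D2:**
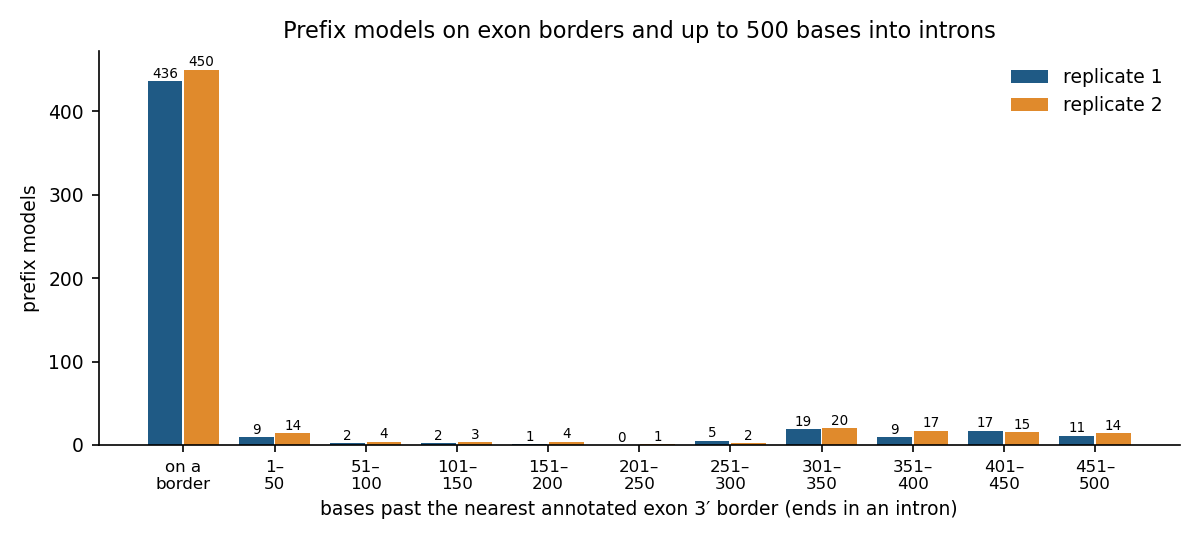
Number of prefix models ending on an annotated exon border and, for ends in an intron, by the number of bases past the nearest border, in replicate 1 and replicate 2. Intronic ends whose nearest border follows them are left out. Few ends lie 51 to 300 bases past a border, and the count goes up to 19 and 20 models at 301 to 350 bases.

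The recurrence of ends was counted over chains, a chain being the ordered splice junctions of a model. Chains that share a 3′ base were each counted, such as the 7-exon and 5-exon Pdlim7 chains ending at 55506773. The intervals take such chains as independent. The 348 chains classed prefix in both tables were 22.2% of prefix models in replicate 1 and 24.1% in replicate 2. The corresponding shares were 40.8% and 42.3% for suffix models and 28.9% and 34.8% for new combinations. Of the 348 chains, 238 had the same recorded 3′ base in both libraries and 277 had ends within 50 bases. These 277 chains in 234 genes are the recurrent ends, which include 40 that reach the end of the longer transcript and are not early, with 1947 reads in replicate 1 and 2154 in replicate 2, and 48 of them had 10 or more reads in sum. The share of shared chains with ends within 50 bases was 79.6% for prefix models, 86.2% for suffix models and 84.9% for new combinations.

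By place in replicate 1, 98 of the 277 recurrent ends were annotated ends of another transcript, 82 exon borders, 40 the end of the longer transcript itself, 36 intronic, 20 inside an exon and 1 outside the gene. The longer transcript is an annotated one in this count, so the 98 also hold chains without one that end with their own unannotated longer chain, such as the 21-exon Atp2a1 model described below. The intronic share was 13.0% (9.54 to 17.5), less than the 20.4% and 18.4% over all prefix models of each library. The recorded ends differed by place in how exactly they met. Both libraries gave the same base in 84.7% of shared chains at another annotated end and in 83.3% at exon borders. They did so in 28.6% of the 56 shared chains ending in an intron, with 64.3% within 50 bases. In the 36 intronic recurrent chains the median gap was 1 base. Whether ends near an annotated end or border were recorded on it was not tested, so these shares describe recorded ends only.

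**Figure D3:**
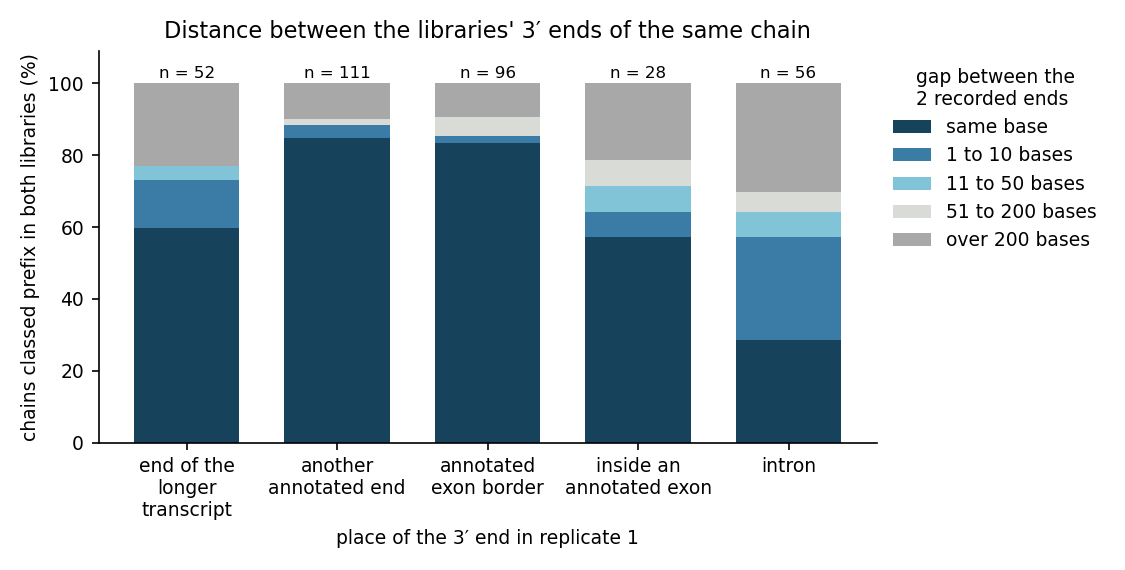
Share (%) of chains classed prefix in both libraries by the gap in bases between the 2 recorded 3′ ends, split by the place of the end in replicate 1, with the number of chains above each bar. Same-base ends make up 84.7% at another annotated end, 83.3% at exon borders and 28.6% in introns. Whether ends near an annotated end or border were recorded on it was not tested.

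Most recurrent ends were a small part of their gene. They took a median of 3.03% of the gene's reads in replicate 1 and 2.94% in replicate 2, and 78 of the 277 took under 1% in both libraries. In 13 they took over 50% in both, and of these Pdlim7, Son and Lats1 had 10 or more reads in each library.

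**Figure D4:**
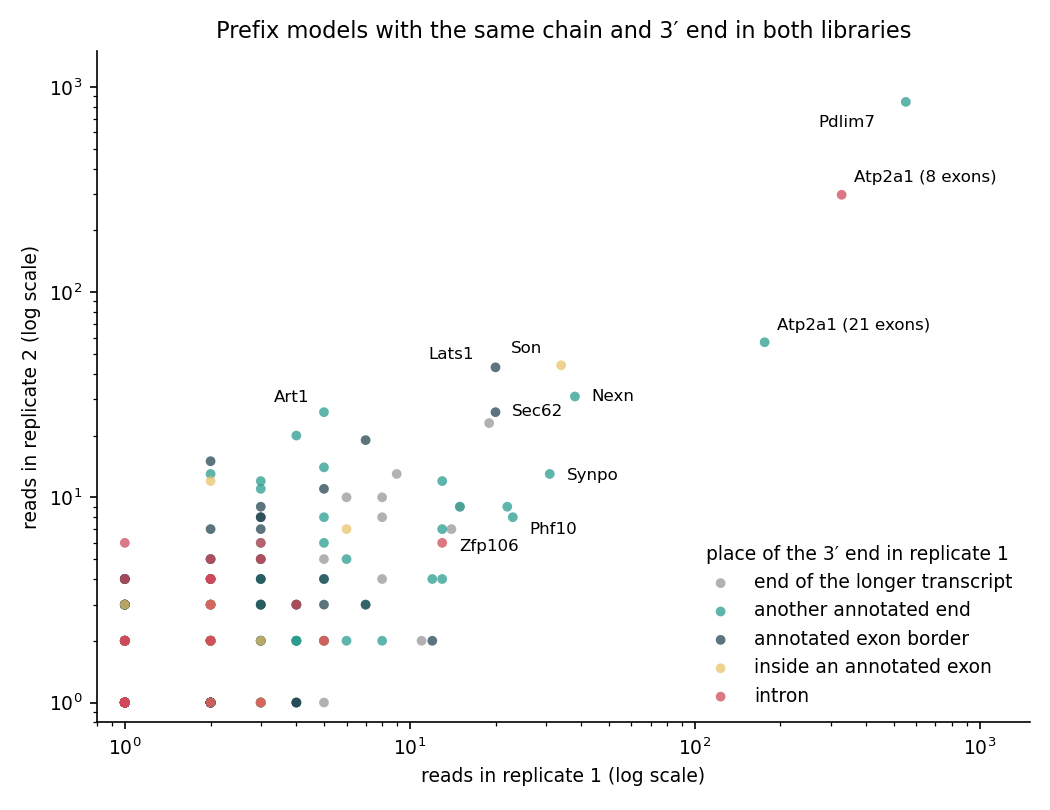
Reads in replicate 1 (x axis) and replicate 2 (y axis), both on log scales, for the chains classed prefix in both libraries with 3′ ends within 50 bases, coloured by the place of the end. Pdlim7 (551 and 845 reads) and the 8-exon Atp2a1 model (328 and 298 reads) stand above the rest, most of which have under 10 reads.

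Among ends in introns, Atp2a1 had the most reads. It encodes SERCA1, the calcium pump that refills the sarcoplasmic reticulum of fast fibres. Its 8-exon model (chr7:126454588-126463108, minus strand) had 328 reads in replicate 1 and 298 in replicate 2, 316.5 and 216.9 CPM. Both libraries ended it at base 126454588, at the end of a last exon of 1956 bases that runs on into the intron after it. The longer model was the main Atp2a1 chain of the tissue, of 22 exons, with 97565 reads in replicate 1 and 30697 in replicate 2. That chain and its prefix share a junction from 126462187 to 126462779 that the annotation lacks, so no annotated transcript counted as the longer one. The early end made up 0.335% of the reads of both chains together in replicate 1 and 0.961% in replicate 2, where the main chain had fewer reads. The adjusted p was 2.68e-05 and the ratio, replicate 1 over replicate 2, was 1.46-fold, under the limit of 2-fold.

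A second Atp2a1 model had 21 exons and kept the last intron of the same chain (chr7:126445858-126463108). It had 176 reads in replicate 1 and 57 in replicate 2, 170 and 41.5 CPM, and ended on the annotated end at 126445858 in both. It was called higher in replicate 1 (4.07-fold, adjusted p = 4.23e-22), and its share of the reads of both chains together was 0.180% in replicate 1 and 0.185% in replicate 2. In all, Atp2a1 held 29 prefix models in replicate 1 and 18 in replicate 2, with 554 and 377 reads out of 104072 and 35745 Atp2a1 reads.

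**Figure D5:**
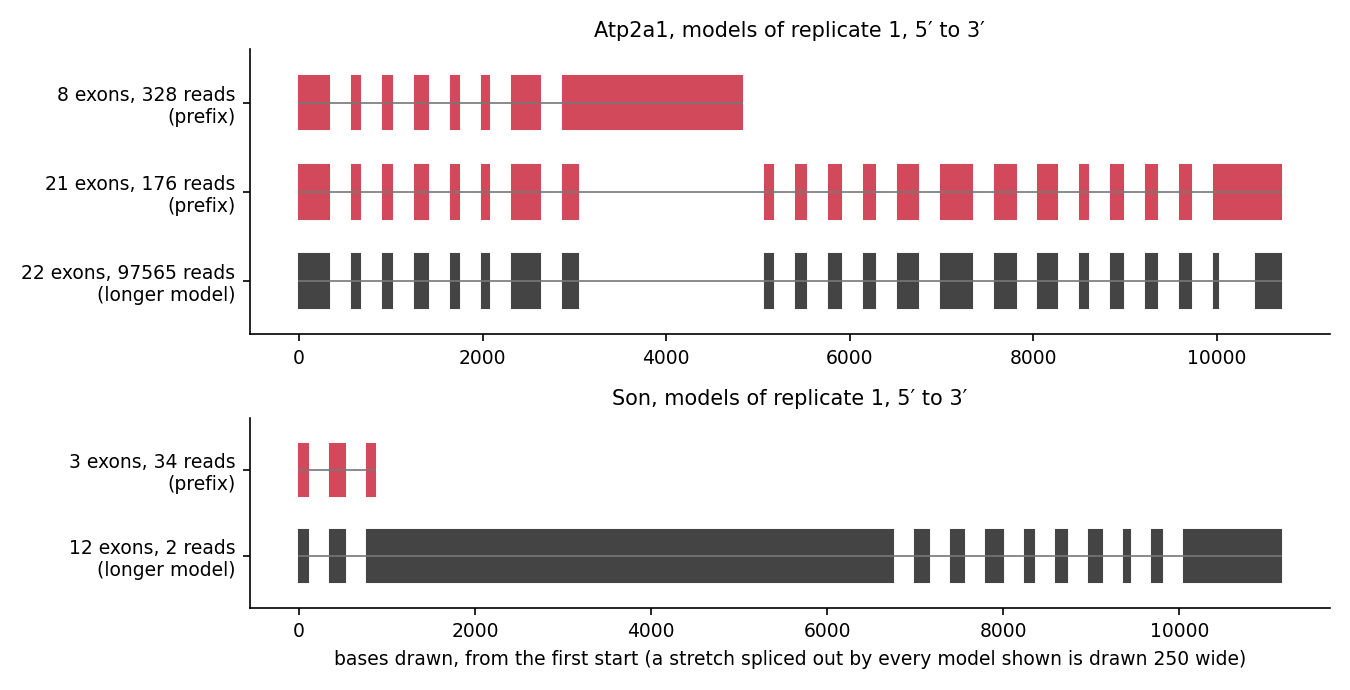
Exons (boxes) of the 8-exon and 21-exon Atp2a1 prefix models and the 22-exon longer model, and of the 3-exon Son prefix model and the 12-exon longer model, all in replicate 1, drawn 5′ to 3′ in bases with each stretch spliced out by every model shown drawn 250 wide. The 8-exon Atp2a1 model ends with a last exon of 1956 bases, and the Son model ends early in the third exon of the gene.

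Zfp106 encodes a zinc-finger protein that binds RNA and is needed for normal motor neurons and muscle in mice. Its 5-exon model (chr2:120533509-120563834, minus strand) had 13 of 253 Zfp106 reads in replicate 1 and 6 of 644 in replicate 2, with ends 2 bases apart. Its last exon was 2171 bases long. The end lay 2 bases past the last shared donor in replicate 1, counted as an intron, and on the exon border in replicate 2. The full 22-exon transcript had 32 reads in replicate 1 and 1 in replicate 2.

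The other intronic recurrent ends had under 10 reads in sum, and those named here were chosen after their values were seen. Ckm, muscle creatine kinase, had a 5-exon model with 3 and 6 reads ending 1606 bases into the intron after exon 5, 3 bases apart in the libraries, with AATAAA 10 bases before the end. Ckm had 77131 and 90410 reads, so the early end was under 0.01% of the gene. Eno3, muscle enolase, had a 6-exon model with 2 and 5 reads ending at 70660003 on chromosome 11 in both libraries, 842 bases past the donor. Tpm1, a tropomyosin, had a 3-exon model with 1 and 6 reads ending at 67034812 on chromosome 9 in both. Ndufa10, a subunit of respiratory complex I, had a 9-exon model with 5 and 2 reads ending at 92450885 on chromosome 1 in both. Eno3 had 9504 and 14856 reads in all, Tpm1 28356 and 36940, and Ndufa10 409 and 661, so each early end was a few reads beside a far more abundant gene. Whether these are short last exons or internal priming was not tested, since the bases after them lie in introns and were not used here.

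Among ends inside an exon, Son had the most reads. It encodes a nuclear speckle protein that aids splicing. Its 3-exon model (chr16:91647879-91654699, plus strand, 362 bases) had 34 of 49 Son reads in replicate 1 and 44 of 58 in replicate 2. Both libraries ended it at base 91654699, in the third exon of Son-203 and inside the coding span, and kept 4.15% of the length of that transcript. The exon goes on with AAAAAgcAcAAAAAcAAAAA, the capitals above, 16 A in 20 bases. The 12-exon transcript had 2 reads in replicate 1 and 1 in replicate 2, so 69.4% and 75.9% of Son reads were in the model that ends before this run of A. It is a candidate for internal priming, which was not tested. Gm21988, chosen after its values were seen, had a 3-exon model with 6 and 7 reads that ended in an annotated exon at 70238127 on chromosome 11, with AATAAA 16 bases before it.

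At exon borders, Lats1 and Sec62 led. Lats1, a kinase of the Hippo pathway, had a 3-exon model (chr10:7681214-7697649, plus strand) with 20 of 23 Lats1 reads in replicate 1 and 43 of 46 in replicate 2. Sec62, a membrane protein of the translocation channel of the endoplasmic reticulum, had a 4-exon model (chr3:30793336-30810026, plus strand) with 20 of 67 reads in replicate 1 and 26 of 67 in replicate 2. The full 8-exon Sec62 transcript had 39 and 28 reads, so short and full models were of the same order. Both ended on the exon border in both libraries, inside the coding span. The Lats1 model kept 12.0% of the longest transcript and the Sec62 model of replicate 1, of 468 bases, 11.8%, while the Sec62 model of replicate 2 had 929 bases. Zfp938, chosen after its values were seen, had 7 and 19 reads of 11 and 22, and Eif5b, a translation initiation factor, had 12 reads in replicate 1 and 2 in replicate 2. The 20 bases after these borders lie in introns, and their sequence was not used here.

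Models on annotated ends of another transcript included, besides Pdlim7 and Atp2a1, those of Nexn, Synpo, Phf10, Lrp6 and Art1. Nexn encodes nexilin, an actin-binding protein of the Z-disc, and its 12-exon model had 38 of 487 Nexn reads in replicate 1 and 31 of 1496 in replicate 2, both ending at 152236982 on chromosome 3. Synpo, an actin-associated protein, had 31 reads in replicate 1 and 13 in replicate 2. Phf10, a subunit of a chromatin remodelling complex, had a 9-exon model (chr17:14947738-14961273) with 23 and 8 reads beside 30 and 30 of the full 12-exon transcript. Lrp6, a Wnt co-receptor, had a 2-exon model (chr6:134540774-134566965) with 13 of 27 and 12 of 24 reads, beside 4 and 1 reads of the 23-exon transcript. Art1, an ADP-ribosyltransferase of the muscle surface, had a 5-exon model with 5 and 26 reads. The end of each lay on an annotated 3′ end of the gene. In Nexn the longer 13-exon chain ended at the same base in replicate 2, so the model kept the last intron of that chain. In replicate 1 the longer chain ended 2458 bases further on. Whether the models of Synpo, Phf10, Lrp6 and Art1, and that of Nexn in replicate 1, are short last exons or internal priming was not tested.

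The bases after the end could be read from annotated exons for 452 prefix models of replicate 1, 400 of replicate 2 and 73 of the 277 recurrent ends. A-rich, meaning at least 12 A in 20 bases, were 52 of 452 (11.5%, 8.88 to 14.8), 39 of 400 (9.75%, 7.22 to 13.1) and 9 of 73 (12.3%, 6.62 to 21.8). The same was true of 419 of 6035 annotated ends of the host genes (6.94%, 6.33 to 7.61). These 6035 are the ends, out of 11762, whose next bases another annotated exon covers. It was also true of 1.18% of 386351 side-by-side windows of 20 bases along the longest transcript of each host gene. The A-rich share was highest at annotated ends of another transcript, 18.6% of 183 models in replicate 1 (13.6 to 24.8) and 13.9% of 180 in replicate 2 (9.59 to 19.7). Inside exons it was 8.22% of 146 and 9.85% of 132. At exon borders it was 0 of 37 in replicate 1, which allows a share of up to 9.41% by the Wilson interval, and 1 of 49 in replicate 2. Among the 9 recurrent A-rich ends, not all of which are named here, were Son with 34 reads in replicate 1 and 44 in replicate 2, and Eif5, Hsp90aa1, Map3k10, Atxn2, Mphosph8, Mtdh and Rbm25 with 2 to 4 reads each in sum. In those named both libraries gave the same base, and 8 of the 9 ends lay on an annotated end of another transcript. Eif5 (a translation initiation factor), Hsp90aa1 (a chaperone), Mphosph8 (a silencing factor) and Rbm25 (a splicing factor) stop inside the coding span.

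AATAAA was searched on the transcript strand in the last 40 bases of each model, where annotated exons cover them. It was present in 144 of 207 models of replicate 1 (69.6%) and 107 of 141 of replicate 2 (75.9%) that ended with the longer transcript. At annotated ends of another transcript it was present in 45.0% and 39.5%. It was present in 11 of 426 (2.58%) and 13 of 432 (3.01%) at exon borders, and in 22.1% of 86 and 22.1% of 77 inside exons. All annotated ends of the host genes held it in 25.5% of 11758. Among recurrent ends, 35 of 40 at the end of the longer transcript, 49 of 97 at other annotated ends, 2 of 10 inside exons and 0 of 77 at exon borders held it. In introns only 12 models of replicate 1, 10 of replicate 2 and 4 recurrent ends could be searched. Of these, 2, 3 and 2 held it.

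Of the 40 recurrent ends at the end of the longer transcript, 10 had 10 or more reads in sum. Ppp1r27, a regulator of protein phosphatase 1, had a 2-exon model that kept its last intron with 19 of 322 reads in replicate 1 and 23 of 397 in replicate 2. Mlf2, chosen after its values were seen, had 15 of 352 and 9 of 299 reads in an 8-exon model. Actn3, α-actinin of fast fibres, had a 20-exon model with 58 reads in replicate 1 and 28 in replicate 2, with recorded ends more than 50 bases apart, at 4861223 in replicate 1 and 4861585 in replicate 2 on chromosome 19, so it is not among the recurrent ones. Acta1, skeletal α-actin, had 6 and 10 reads of 80662 and 82734. Xirp1, an actin-binding repeat protein, had 11 and 2 reads.

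The gene lists were read against all genes. Their counts were not adjusted for reads per gene, which differed widely between the lists. Of the 15508 annotated genes with reads, 11.8% had a prefix model in either library and 2.76% in both, and of 2256 genes whose libraries sum to 100 reads or more 29.1% did in either and 9.66% in both. Of 32 sarcomere genes, 26 had a prefix model in either library and 20 in both, with 270 of 250661 list reads in replicate 1 (0.108%) and 174 of 353028 in replicate 2 (0.0493%). Neb and Myh4 had the most prefix models of this list. Neb, the giant thin-filament protein, had 15 and 13 models with 22 of 168 and 19 of 238 reads. Myh4, the fastest myosin heavy chain, had 13 and 11 models with 20 of 14581 and 11 of 22718 reads. Tnnt3, fast troponin T, had a 3-exon chain with 8 reads in replicate 1, classed as a new combination, and 28 in replicate 2.

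Of 22 genes of calcium handling and excitation-contraction coupling, 12 had prefix models in either library and 8 in both, and 17 chains recurred in 5 genes, mostly Trdn and Atp2a1. Trdn had 24 models in replicate 1 and 29 in replicate 2, more than any other gene in the sum, with 84 of 1163 and 437 of 3184 reads. The 9 recurrent ends of Trdn lay on exon borders, after 4, 5, 6, 7, 9, 11, 15 and 20 exons, with 1 to 7 reads in each library. Of 19 glycolysis and glycogen genes, 12 had prefix models in either library. Their 9 recurrent chains had few reads, such as Phkg1, a subunit of phosphorylase kinase, with 2 and 4, and a 3-exon Aldoa chain with 2 and 2. Of 21 nuclear genes of oxidative phosphorylation 11 had prefix models in either library and 1 chain recurred, in Ndufa10. Of 17 matrix genes, 6 had prefix models and 0 chains recurred. Of 21 cleavage and polyadenylation factors 3 had prefix models, and of 10 U1 snRNP proteins 0 did, at 520 list reads in replicate 1 and 874 in replicate 2. Of 12 genes chosen because short 3′ end isoforms have been described for them in mammals, 6 had prefix models and 2 had recurrent ones, with Trdn holding most of the reads.

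The libraries were compared model by model with a two-sided exact binomial test of the 2 read counts, given the reads in annotated genes of each library. It compares these 2 libraries and not conditions, sets the difference against counting error alone with reads taken as independent, and holds no estimate of the spread between animals. Of 9697 models of all classes with 10 or more reads in sum, 2423 passed an adjusted p of 0.05 (Benjamini-Hochberg, over all models) with a ratio of 2-fold or more, which is 25.0% of those tested. Of the 83 chains classed prefix in at least 1 table, 19 were called (22.9%), near the background of 25.0%. They split into 14 higher in replicate 1 and 5 higher in replicate 2, with 19.2% and 5.74% of all models called in those directions. The median log2 ratio, replicate 1 over replicate 2, was 0.41 for prefix chains and 0.41 for all models, which is the value of a chain with equal counts in both libraries. Among models with 20 or more reads in sum the medians were 0.45 for prefix chains and 0.31 for all models, a difference that was not tested. With TMM or DESeq2 size factors, which move the median of all models to -0.01 and 0, 16 chains were called and split into 6 higher in replicate 1 and 10 higher in replicate 2.

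Among chains classed prefix in both tables, those called with the highest ratios toward replicate 1 were Eif5b (12 and 2 reads, 6.63-fold, adjusted p = 0.00788), Xirp1 (11 and 2 reads, 6.10-fold, adjusted p = 0.0135) and the 21-exon Atp2a1 model. Sik3 and Ankrd11 came next, with 13 and 4 and with 12 and 4 reads. Toward replicate 2 they were Pofut2 (2 and 15 reads), Art1 (5 and 26 reads) and Sike1 (4 and 20 reads). With TMM the calls of Xirp1 (adjusted p = 0.0672), Sik3 (0.125) and Ankrd11 (0.174) were lost by the exact binomial test.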

How the data were processed

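The authors' deposited tables give raw counts of reads on transcript models, 1 table a library and not pooled. Exonic length and exon number stand beside them, and paired annotation files give 1-based exon positions. Per the file headers and the readme deposited with them, the assembly is mm10, the annotation GENCODE M21 and the models carry TALON identifiers. Which aligner and version were used is not given in the sources used here. Prefix models were taken by the deposited class. The labels called the libraries replicates 1 and 2, and no test between groups was possible.

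Chains of junctions were compared with GENCODE M21 in Python 3.11.15 (pandas 2.3.3). CPM are counts scaled to 1000000 reads in annotated genes. An end within 50 bases of an annotated 3′ end was put there first, a category added after the data were seen. Shares carry Wilson 95% intervals, which cover counting error only, since reads are not shown to be independent molecules. Log2 ratios had 0.5 reads added. Size factors came from edgeR 4.0.16 and DESeq2 1.42.0. The exact test was tested on simulated data. No genome was used here, so bases after an end were read only where an annotated exon covers them, and the planned count of A-rich ends covers those alone. Unannotated single-exon models were left out of the test.

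The members, gene lists and tests were chosen with earlier results of these data known. Named were the recurrent prefix models with at least 10 reads in sum (the 12 highest in CPM among intronic ends and the 12 among ends in exons), up to 5 called toward each library, the 5 of most reads in each library, and list members with at least 10 reads. Some items that this rule would name are not reported here.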

Additional observations from a re-analysis of the deposited data

How the results depend on the processing

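The mean share of mouse reads in prefix models over the 2 libraries was 0.909% ± 0.859 (SD, n = 2), and each library left alone gave 0.302% and 1.52%. It moved by less than that spread under every alternative run, but the spread is nearly as large as the mean, so few changes could pass it. The share fell by over 1.5 times with chains classed prefix in both tables (0.182%), without the Aldoa model (0.331%) and with an annotated longer transcript (0.174%). The last 2 were chosen after seeing the data. Recurrent ends numbered 277, 269 within 10 bases, 289 within 200 bases, 338 with the prefix class in at least 1 table and 30 where both libraries had 5 reads or more. In those 30, annotated ends made up 73.3% (49.8% over all), exon borders 13.3% and introns 6.67%. Another setting used the matching annotated transcripts alone and left out chains without one. Annotated ends then made up 17.2%, ends inside an exon 15.4% and introns 33.9%. Ends and exons of other transcripts do not count in that setting, so ends on an annotated end of another transcript were placed elsewhere by rule. Left with all prefix models of 1 library, annotated ends made up 39.4% to 40.6%, exon borders 27.8% to 31.2%, ends inside an exon 9.58% to 9.82%, introns 18.4% to 20.4% and A-rich ends 9.75% to 11.5%. Called prefix chains numbered 19, with 7 under no filter, 12 at 20 reads or more and 12 with the prefix class in both tables (added after seeing the data). Over the 31 single chains tried, 8 calls were lost and 2 gained under TMM, likewise with DESeq2 size factors, 12 were lost with no filter, and no called chain changed sign, while 4 uncalled ones turned from above 0 to below 0 on the log2 scale under TMM and DESeq2 size factors. Under TMM these were Aldoa (0.20 and -0.22), the 10-exon Trdn chain (0.18 and -0.24), Son (0.04 and -0.38) and Prr33 (0.39 and -0.03). The median share kept, a mean of 48.4% over the libraries (44.1% to 52.8%), was 60.2% against the shortest transcript. No paired analysis was possible because both libraries belong to 1 group. Most prefix models rest on 1 read, which limits every share given for a single gene.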
